A study of Mus musculus with 6 samples.

Results

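Small nucleolar RNAs (snoRNAs) were taken as every gene symbol that starts with Snora or Snord followed by a digit in all 6 tables of expression values. The rule gave 92 symbols of 22800, of which 29 were of the H/ACA class (Snora) and 63 of the C/D class (Snord). The cells were murine oviductal epithelial (MOE) cells, a line made by pooling oviducts of 8-week-old female outbred CD1 mice. The high-passage MOE HIGH cells (passages 90, 103 and 113) were derived by continued culture of the low-passage MOE LOW cells (passages 8, 9 and 10), with no other treatment or allele named, and 1 library was sequenced per passage (n = 3 per group). The passage given for a value is that of the sample label, and which library of a group is which passage could not be checked in the tables. Because all 6 libraries come from 1 line, p-values measure the spread between passages of that line and not between animals. Values are FPKM, numbers of sequenced fragments scaled to transcript length and to the size of the library.

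snoRNAs are short nuclear RNAs that guide the chemical modification of ribosomal RNA by base pairing with it. C/D snoRNAs carry the C and D boxes and direct ribose methylation by fibrillarin, and H/ACA snoRNAs fold into hairpins that end in an ACA box and direct the conversion of uridine to pseudouridine by dyskerin. Most vertebrate snoRNAs are cut out of introns of host genes, many of which encode ribosomal proteins or translation factors.

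The sequences of the snoRNAs on which the results turn are shown first, because the classes differ in length as well as in their boxes. Below, an ACA within the last 20 bases of an H/ACA snoRNA, and TGATGA within the first 20 and CTGA within the last 20 bases of a C/D snoRNA, stand in capitals, and every sequence is the GENCODE vM21 transcript of build GRCm38 (mm10), 5′ to 3′ on its own strand. Snora21 and Snora78 were listed at 0 in at least 2 libraries of MOE LOW and above 0 in all 3 of MOE HIGH. Snora64 had the highest mean of all members, Snora41 was above 0 only in MOE LOW, and Snora81 and Snord2 lie in introns of the same host gene, Eif4a2.
Snora21: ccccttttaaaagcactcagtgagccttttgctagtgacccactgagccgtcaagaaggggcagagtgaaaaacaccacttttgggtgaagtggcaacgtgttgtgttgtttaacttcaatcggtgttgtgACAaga
Snora78: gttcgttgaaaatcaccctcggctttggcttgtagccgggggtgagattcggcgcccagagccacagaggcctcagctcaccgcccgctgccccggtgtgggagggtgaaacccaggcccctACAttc
Snora64: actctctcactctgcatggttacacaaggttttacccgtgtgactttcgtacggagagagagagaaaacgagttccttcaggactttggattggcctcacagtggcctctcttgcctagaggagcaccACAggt
Snora41: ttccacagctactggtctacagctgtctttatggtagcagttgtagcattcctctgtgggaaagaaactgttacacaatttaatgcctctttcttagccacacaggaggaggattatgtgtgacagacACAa
Snora81: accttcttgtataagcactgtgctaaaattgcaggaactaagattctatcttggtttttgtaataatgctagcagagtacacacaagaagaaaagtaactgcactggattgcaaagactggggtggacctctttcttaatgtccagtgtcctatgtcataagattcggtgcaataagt
Snord2: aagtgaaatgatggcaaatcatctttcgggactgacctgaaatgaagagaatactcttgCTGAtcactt
The 3 C/D snoRNAs with the highest means follow, to show the long U15-type pair beside the shorter Snord89.
Snord15b: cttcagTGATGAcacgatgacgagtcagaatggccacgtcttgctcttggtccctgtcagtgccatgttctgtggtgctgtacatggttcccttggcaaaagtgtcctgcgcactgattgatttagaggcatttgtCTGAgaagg
Snord15a: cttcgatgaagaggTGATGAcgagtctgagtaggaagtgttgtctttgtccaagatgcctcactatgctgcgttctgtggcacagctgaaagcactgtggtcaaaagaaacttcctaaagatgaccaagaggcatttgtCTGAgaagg
Snord89: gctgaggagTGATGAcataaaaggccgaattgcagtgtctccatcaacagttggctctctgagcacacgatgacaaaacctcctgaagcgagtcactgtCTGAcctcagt
Snora21 lies at chr11:97781639-97781775 on the minus strand, Snora41 at chr1:63179004-63179135 on the plus strand, and Snord89 at chr1:39548745-39548854 on the minus strand. Snora78 at chr17:24719676-24719803 (minus strand) and Snora64 at chr17:24720772-24720905 (plus strand) are separated by 968 bases. Snora81 at chr16:23110756-23110933 and Snord2 at chr16:23108953-23109021 are both on the plus strand. Snord15b at chr7:99479563-99479707 and Snord15a at chr7:99482785-99482932 lie 3077 bases apart on the minus strand in introns of Rps3, and shared 107 of 162 aligned columns (66.0%).

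The boxes were searched as plain letters on the RNA strand over all members with a GENCODE sequence. TGATGA was found within the first 20 bases of 39 of 62 C/D members (62.9%), against 0.182% of 2201 miRNA transcripts of the same annotation. CTGA was found within the last 20 bases of 60 of 62 C/D members (96.8%), against 8.72% of the miRNA transcripts. ACA was found within the last 20 bases of 27 of 29 H/ACA members (93.1%), against 30.2%. Snora81 above shows no ACA in that window and Snord2 no TGATGA, which says only that these letters are not there.

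Most snoRNAs were listed at 0 throughout. Of the 92 members, 69 were listed at 0 in all 6 libraries, and these were 10 of the 29 H/ACA snoRNAs and 59 of the 63 C/D snoRNAs. The other 23 were above 0 in at least 1 library, and only 4 of them were C/D snoRNAs (Snord89, Snord17, Snord15a and Snord15b). In all 6 libraries 6 members were above 0, namely Snora30, Snora52, Snora70, Snora81, Snord15b and Snord89. A further 13 were above 0 in 2 to 5 libraries. The last 4 were above 0 in 1 library, which was passage 113 for Snora2b (121 FPKM), Snora3 (63.8 FPKM) and Snora28 (58.1 FPKM), and passage 90 for Snora23 (1.56 FPKM). A listed 0 may be a value that could not be estimated and not an absence of the RNA. The spliceosomal RNA genes Rnu6, Rnu11 and Rnu12, which every cell uses, were also listed at 0 in all 6 libraries.

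Listing above 0 followed annotated length. RefSeq (GRCm38.p6) gave a length for 91 members, with a median of 118 nt (56 to 198 nt) for H/ACA snoRNAs and 68 nt (28 to 221 nt) for C/D snoRNAs. The shortest H/ACA snoRNA above 0 was Snora33 at 105 nt, and this length was used to divide the members, so that no shorter H/ACA snoRNA was above 0 by construction. Of 58 C/D snoRNAs shorter than 105 nt, 1 was above 0, the 94 nt Snord89, and of the 4 longer ones 3 were. Of the 24 H/ACA snoRNAs of 105 nt or more, 19 were above 0, and over both classes 22 of 28. The 6 long members at 0 were Snora7a, Snora31, Snora35, Snora62, Snora69 and Snord118, a C/D snoRNA required for the processing of precursors of large subunit ribosomal RNA, and their lengths were 112 to 137 nt.

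The lowest listed value also tended to fall with length, as the plot of lowest value against length shows. Among members picked along the range, it was 481 FPKM for Snora33 (105 nt), 37.8 FPKM for Snora21 (128 nt) and 20.5 FPKM for Snord15b (145 nt). It was 9.04 FPKM for Snora78 (157 nt) and 1.45 FPKM for Snord17 (221 nt). The order was not strict. Snord89 (94 nt, lowest value 1.09 FPKM) and Snora30 (107 nt, 4.18 FPKM) lay far below it. Among others, Snora16a (136 nt, 50.2 FPKM) lay above the shorter Snora21, and Snora81 (164 nt, 18.6 FPKM) above the shorter Snora78. Across the 23 members above 0, Spearman's rho between length and lowest value was -0.53, given as a description over genes that share the same 6 libraries. FPKM divides by transcript length and the tables give neither lengths nor counts, so how length entered each value was not tested.

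**Figure D1:**
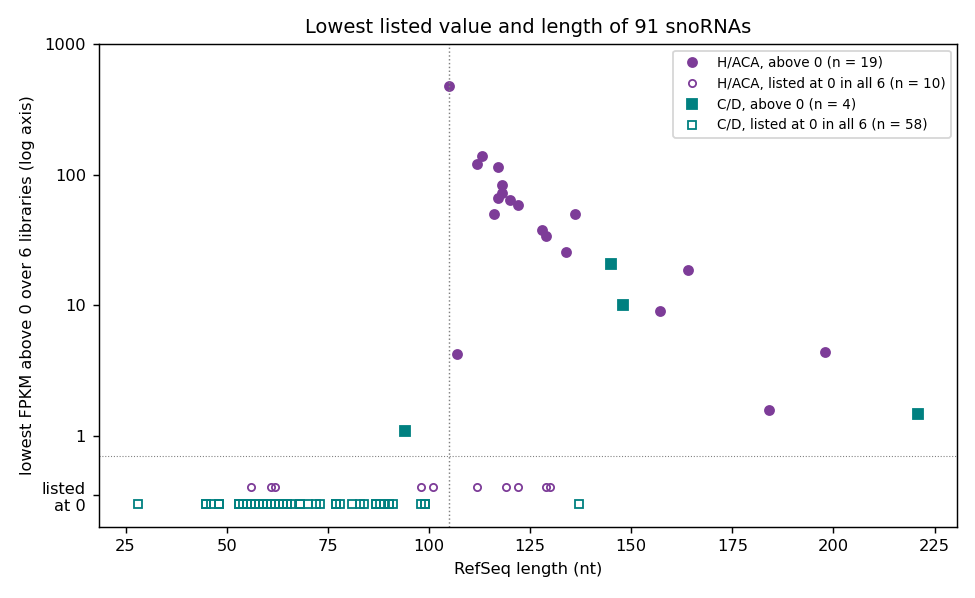
Lowest FPKM above 0 over the 6 libraries (log axis) against RefSeq length in nt for 91 snoRNAs; filled circles are H/ACA and filled squares C/D snoRNAs above 0 in at least 1 library, open symbols below the dotted horizontal line are members listed at 0 in all 6. The dotted vertical line is at 105 nt, the length of the shortest H/ACA snoRNA above 0; left of it 1 of 58 C/D snoRNAs was above 0, and from it on 3 of 4.

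The annotation matters for this division. The 5 H/ACA members under 105 nt in RefSeq (Snora5c, Snora19, Snora20, Snora61 and Snora68) were listed at 0 by that construction, and in GENCODE the same 5 genes span 128 to 136 nt. Snora78 is longer in RefSeq (157 nt) than in GENCODE (128 nt). Other short RNA genes were mostly listed at 0 too. Of 533 miRNA symbols, 498 had a RefSeq length, and only these were counted. Of them 24 were above 0, which were 16 of 429 shorter than 105 nt and 8 of 69 of that length or more. Among Cajal body RNAs (Scarna), which guide modification of spliceosomal RNA, 2 of 8 were above 0, Scarna6 and Scarna13, both in the longer set.

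Members that share a host gene were compared by RefSeq length. GENCODE placed 84 members inside a gene on the same strand that is also in the tables, giving 62 host genes. In 3 of these hosts some members were above 0 and others at 0, and in all 3 every member above 0 was longer than every member at 0 by RefSeq length. By GENCODE length this did not hold in Snhg12, where Snora61 (at 0) is 130 nt and Snora44 (above 0) 129 nt. In Eif4a2, which encodes a helicase of translation initiation, Snora81 (164 nt) was above 0 in all 6 libraries and Snord2 (68 nt) at 0 in all 6. In Rps12, a small subunit ribosomal protein gene, Snora33 (105 nt) was above 0 in 2 libraries and Snord100 (68 nt) at 0. In Snhg12, a noncoding host gene, Snora44 (117 nt in RefSeq) and Snora16a (136 nt) were each above 0 in 3 libraries, and Snora61 (62 nt in RefSeq) and Snord99 (56 nt) were at 0. The 3 other hosts with at least 3 members, Rpl13a, Rpl23a and 2410006H16Rik, held only members of 45 to 89 nt, all at 0.

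The level of the host did not separate the 2 sets. Host genes of members at 0 had a median of 201 FPKM over the 6 libraries (65 members, 0 to 6110 FPKM), and host genes of members above 0 had a median of 290.1 FPKM (19 members, 0 to 6110 FPKM). For 24 members at 0 the host averaged at least 1000 FPKM. Snhg9, the annotated host of Snora78, was itself listed at 0 in all 6 libraries, as was Htr2c, the host of Snora35.

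**Figure D2:**
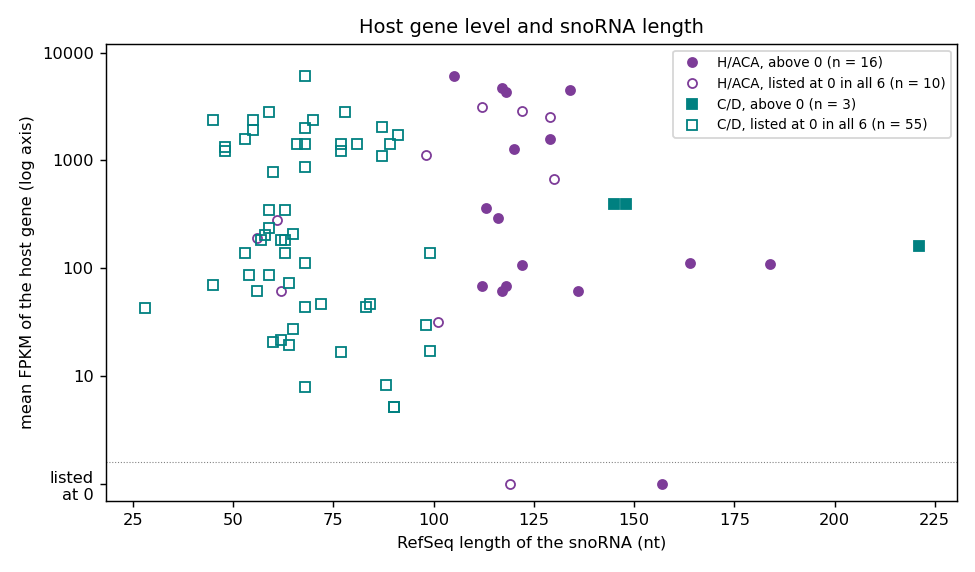
Mean FPKM of the host gene over the 6 libraries (log axis) against the RefSeq length of the snoRNA in nt, 1 point per snoRNA; circles are H/ACA and squares C/D snoRNAs, filled where the snoRNA was above 0 in at least 1 library and open where it was listed at 0 in all 6. Open and filled points cover the same range of host levels, up to 6110 FPKM. Only members with a host gene value are drawn, and the C/D points drawn part along the length axis. Snord89 (94 nt, above 0) and Snord118 (137 nt, at 0), which break this order, had no host value and are not drawn. Some open H/ACA points, such as Snora7a (129 nt) and Snora62 (130 nt), lie among filled ones.

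Listed zeros were slightly fewer in MOE HIGH. In MOE HIGH 47 of 276 values were above 0, with 15, 15 and 17 members per library at passages 90, 103 and 113, against 33 of 276 in MOE LOW, with 12, 9 and 12 at passages 8, 9 and 10. Relative depth differed between the libraries as well. Read from genes at the lowest values, the worth of 1 fragment relative to passage 8, on the log2 scale, was -0.30, -0.19 and -0.35 in MOE HIGH and 0, -0.18 and -0.15 in MOE LOW, and a lower worth means more fragments behind the library. The 3 libraries of MOE HIGH had both the lowest worth and the highest counts, so depth and group went together. Within MOE LOW the order of depth was not the order of the counts. There passage 8, with the fewest fragments, had 12 members above 0 and passage 9 had 9. The absolute depth is unknown, and the part of depth in the number of zeros was not tested.

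Many values were close to the lowest value of the same member. After allowing for relative depth, each value was divided by the lowest value of the same member. Of the 57 values above 0 other than these lowest ones, 44 were under 3 times the lowest value, and of the 19 members above 0 in at least 2 libraries, 13 had every value above 0 under that limit. The 6 members with a value of at least 3 times their lowest were Snora30, Snora52, Snora64, Snora78, Snora81 and Snord15b, and the highest ratio was 11.23, for Snora81 at passage 113.

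**Figure D3:**
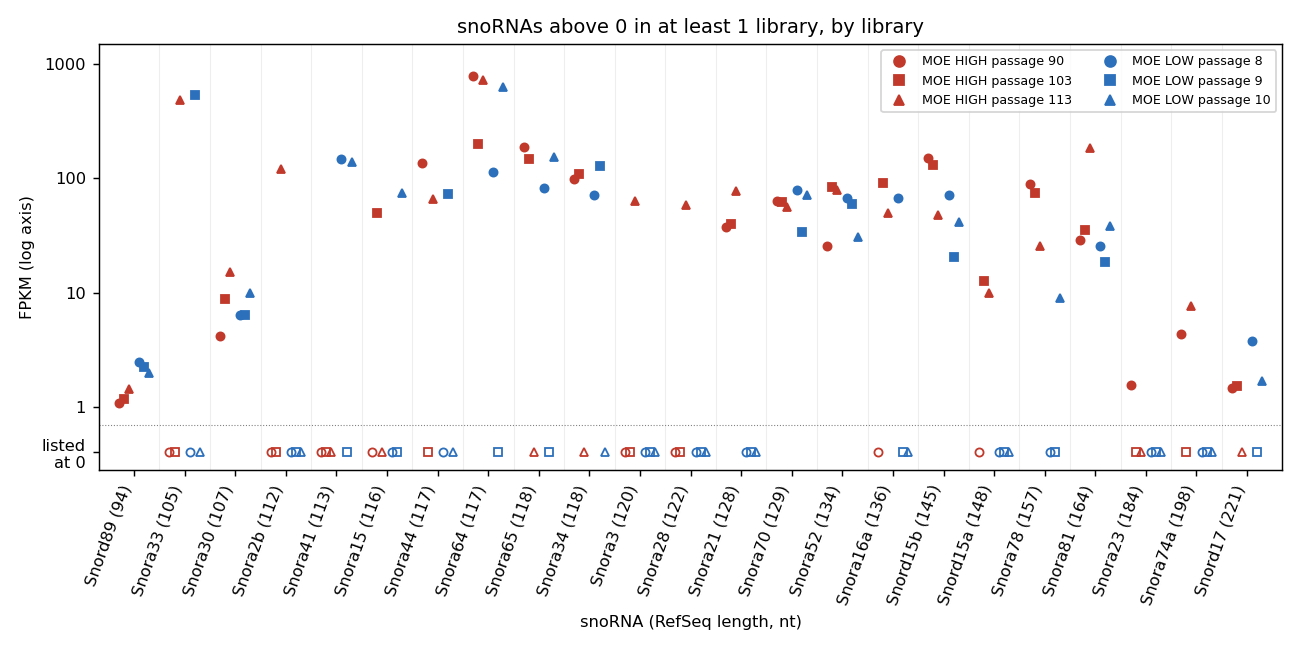
FPKM (log axis) of the 23 snoRNAs above 0 in at least 1 library, ordered by RefSeq length in nt (in parentheses), with the 3 libraries of MOE HIGH in red on the left and the 3 of MOE LOW in blue on the right of each column; open symbols below the dotted line are values listed at 0. Snora21 has 3 filled red symbols and 3 open blue ones, and Snord89 is the only other member besides Snora78 whose groups do not overlap.

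Comparing MOE HIGH to MOE LOW asks which transcripts changed with long culture. The test was limma's, applied to log2(FPKM + 1) in the 11621 genes that averaged 0.5 FPKM or more, and p-values were adjusted over all of these. In all, 22 members entered the test, 18 H/ACA and 4 C/D, and 16 of these had at least 1 listed 0. A member could enter through 1 group alone, so counts over the 22 do not describe all snoRNAs. Snora21, Snora41, Snora74a and Snord15a entered in this way, with 1 group at 0 throughout, as did Snora2b, Snora3 and Snora28, which were not called. For all of these the libraries' values are given as a description. The calls of the first 4 are counted below, but neither these calls nor their loss in alternatives is read as support for a change. Among H/ACA snoRNAs 3 were called higher, 1 lower and 14 neither, and among C/D snoRNAs 1 was called higher, 1 lower and 2 neither. Of all genes tested, 24.3% were called higher, 32.1% lower and 56.4% either way. The groups did not overlap in 3 of the 22 members, Snora21, Snora78 and Snord89, against 64.0% of all genes tested.

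Snora21, which in human guides pseudouridylation of large subunit ribosomal RNA, had 37.8, 40.0 and 77.5 FPKM in MOE HIGH at passages 90, 103 and 113, and was listed at 0 at all 3 passages of MOE LOW. It was the only member above 0 in every library of 1 group and at 0 in every library of the other. These values were 1.02, 1 and 2.17 times the lowest of them after allowing for depth, so most of the difference is between the lowest value listed for it and 0. No fold is given against a group listed at 0.

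Snora78 had 90.0, 74.6 and 25.6 FPKM in MOE HIGH, against 0, 0 and 9.04 FPKM in MOE LOW. Every value of MOE HIGH lay above those of MOE LOW, and passage 113 was the lowest of its group. The fold change on the log2 scale, 4.72 with a standard error of 0.90, was called (adjusted p = 0.0027, limma). It was 4.16 to 9.17 across the alternatives, lowest without passage 8 or 9 and highest with a pseudocount of 0.01. In multiples of its lowest value, Snora78 stood at 11.07, 8.50 and 3.26 in MOE HIGH and at 1 in the only MOE LOW library above 0.

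Snora64, its neighbour on the other strand and a guide for large subunit ribosomal RNA in human, had the highest mean FPKM of any snoRNA. It had 792, 199.9 and 721 FPKM in MOE HIGH, against 114, 0 and 633 FPKM in MOE LOW. Passage 10 of MOE LOW lay above passage 103 of MOE HIGH, so the groups overlapped. The log2 fold change of 3.54 (standard error 2.06) was not called (adjusted p = 0.18 from limma), but without passage 10 it was 5.50 and called (adjusted p = 0.041 from limma). Without passage 9, the only library at 0, it was 0.85 (adjusted p = 0.44 from limma).

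Snora41 was listed at 0 in all 3 libraries of MOE HIGH, and MOE LOW had 148, 0 and 139 FPKM at passages 8, 9 and 10. The groups overlapped at 0, both values above 0 lay within 1.04 times of each other, and its call in limma was lost in 9 of 15 alternatives. Snora74a had 4.35, 0 and 7.67 FPKM in MOE HIGH and was at 0 in all 3 libraries of MOE LOW, and its call was lost in 11 of 14 alternatives.

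The remaining H/ACA snoRNAs did not pass the test. Snora33 was above 0 in 1 library of each group, with 481 FPKM at passage 113 of MOE HIGH and 542 FPKM at passage 9 of MOE LOW. Snora65 had 187, 147 and 0 FPKM in MOE HIGH and 83.0, 0 and 155 FPKM in MOE LOW. Snora34 had 99.1, 108 and 0 FPKM in MOE HIGH and 72.1, 128 and 0 FPKM in MOE LOW. Snora65 and Snora34 were both at 0 at passage 113 of MOE HIGH, where Snora33 alone of the 3 was above 0. Snora44 had 137, 0 and 65.5 FPKM in MOE HIGH and 0, 73.3 and 0 FPKM in MOE LOW, and Snora16a, from the same host, had 0, 91.2 and 50.2 FPKM in MOE HIGH and 67.1, 0 and 0 FPKM in MOE LOW. Passage 113 was the only library in which both snoRNAs of Snhg12 were above 0 together.

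The 4 H/ACA snoRNAs above 0 in all 6 libraries were not called. Snora70 had 63.5, 62.5 and 55.9 FPKM in MOE HIGH and 79.6, 33.9 and 71.1 FPKM in MOE LOW (log2 fold change 0.07, adjusted p = 0.86 from limma). Snora52 had 25.7, 83.9 and 79.96 FPKM in MOE HIGH and 67.1, 59.7 and 30.5 FPKM in MOE LOW. Snora30 had 4.18, 8.84 and 15.3 FPKM in MOE HIGH and 6.36, 6.42 and 10.0 FPKM in MOE LOW. For these 3 the groups overlapped, as they did for Snora81. Snora81 had 29.1, 35.1 and 186 FPKM in MOE HIGH and 25.8, 18.6 and 38.7 FPKM in MOE LOW, and its high value came from passage 113 (log2 fold change 1.09, adjusted p = 0.18 from limma).

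Among C/D snoRNAs, the U15-type pair in Rps3 was at unequal levels. Both guide methylation of large subunit ribosomal RNA in human. Snord15b had 151, 131 and 48.2 FPKM in MOE HIGH, against 71.5, 20.5 and 41.5 FPKM in MOE LOW. Passages 90 and 103 lay above all of MOE LOW and passage 113 within its range. The fold change on the log2 scale was 1.30 with a standard error of 0.53 and was not called (adjusted p = 0.066, limma). Without passage 113 it was 1.81 (adjusted p = 0.011 from limma), and without passage 8 it was 1.72 (adjusted p = 0.034 from limma). Without passage 9 it was 0.85 (adjusted p = 0.21 from limma). Snord15a had 0, 12.6 and 9.93 FPKM in MOE HIGH and was at 0 in all 3 libraries of MOE LOW, and its call was lost in 9 of 14 alternatives. In every library Snord15a was listed below Snord15b.

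Snord89 was called lower at a low level. It had 1.09, 1.17 and 1.44 FPKM in MOE HIGH, against 2.48, 2.24 and 2.00 FPKM in MOE LOW, and the groups did not overlap. After allowing for depth, Snord89 stood close to its lowest value throughout. In multiples of that value it was at 1.01, 1 and 1.38 in MOE HIGH and at 1.85, 1.91 and 1.65 in MOE LOW. The fold change on the log2 scale, -0.53 with a standard error of 0.12, was called (adjusted p = 0.0054, limma) and was -0.86 to -0.46 across the alternatives. Snord17, the longest member, had 1.45, 1.54 and 0 FPKM in MOE HIGH and 3.76, 0 and 1.69 FPKM in MOE LOW, and was not called.

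Summed over each class, the groups overlapped. H/ACA snoRNAs summed to 1472, 902 and 2008 FPKM in MOE HIGH and to 663, 862 and 1162 FPKM in MOE LOW. Snora64 alone gave 53.8%, 22.2% and 35.9% of this sum in MOE HIGH and 17.2%, 0% and 54.5% in MOE LOW. C/D snoRNAs summed to 154, 147 and 59.6 FPKM in MOE HIGH and to 77.8, 22.7 and 45.2 FPKM in MOE LOW, most of it from Snord15b. In bulk RNA, fewer cells that make an RNA and less of it per cell cannot be told apart.

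The genes for the proteins that bind snoRNAs were above 0 in every library, and most were higher in MOE HIGH. Of 20 snoRNP (small nucleolar ribonucleoprotein) genes, 15 were called higher, 1 lower and 4 neither, where 24.3% of all genes were higher and 32.1% lower, and the groups did not overlap in 19, against 64.0% of all genes. Their median log2 fold change was 0.64, against -0.05 over all genes tested. With the libraries scaled to equal summed FPKM, 13 were called higher, and scaled to equal medians, 18.

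All 4 core genes of C/D particles were higher. Fbl, the methyltransferase fibrillarin, had 478 ± 126 FPKM in MOE HIGH and 228 ± 36.0 FPKM in MOE LOW (SD, n = 3 each), a log2 fold change of 1.04. Nop56, a scaffold protein, had 514 ± 147 FPKM in MOE HIGH and 185 ± 18.4 FPKM in MOE LOW (log2 fold change 1.43). Its partner Nop58 had a log2 fold change of 0.66. Nhp2l1 (now Snu13), which binds the C/D motif, had 0.38 and was not called in 6 of 15 alternatives, including equal summed FPKM (adjusted p = 0.14 from limma).

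All 4 core genes of H/ACA particles were higher as well, at similar sizes. Dkc1, the pseudouridine synthase dyskerin, had 46.3 ± 4.13 FPKM in MOE HIGH and 25.2 ± 1.86 FPKM in MOE LOW (SD, n = 3 each), a log2 fold change of 0.85. Its partners Gar1, Nhp2 and Nop10 had log2 fold changes of 0.91, 0.86 and 0.99. Each of these 4 was called in all 15 alternatives. Terc, the telomerase RNA, which carries an H/ACA domain bound by the same proteins, was named after its values were seen. It had 2.27, 1.57 and 3.61 FPKM in MOE HIGH, against 0.852, 0.644 and 0.362 FPKM in MOE LOW (log2 fold change 1.07, adjusted p = 0.0040 from limma). Rmrp, a small RNA tested from the same list, had a log2 fold change of -0.60 and was not called (adjusted p = 0.26 from limma). Whether Terc followed the protein genes was not tested.

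Of 12 genes for assembly and trafficking, 7 were higher, 1 was lower and 4 were not called. Nolc1, a phosphoprotein that accompanies snoRNPs between nucleolus and Cajal bodies, had 143 ± 16.2 FPKM in MOE HIGH and 40.2 ± 1.73 FPKM in MOE LOW (SD, n = 3 each), and its log2 fold change of 1.80 was the largest rise of the 20 genes. Naf1, an assembly factor of H/ACA particles, followed at 1.39. The ATPases Ruvbl1 and Ruvbl2 (0.54 and 0.91) and the C/D assembly factors Nufip1 (0.54) and Znhit3 (0.63) were higher too. Tgs1, which methylates the cap of some snoRNAs, was called at 0.42 but not in 8 of 15 alternatives, and Znhit3 was not called in 4 of 15. Shq1, Pih1d1, Rpap3 and Coil, the scaffold of Cajal bodies, had log2 fold changes of 0.10 to 0.31 and were not called.

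Znhit6, a C/D assembly factor, moved the other way. It had 36.6, 27.4 and 27.0 FPKM in MOE HIGH, against 126, 109 and 84.0 FPKM in MOE LOW. Every library of MOE HIGH lay below every library of MOE LOW, and the fold change on the log2 scale of -1.77, with a standard error of 0.18, was called (adjusted p = 0.00010, limma) also in all 15 alternatives.

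**Figure D4:**
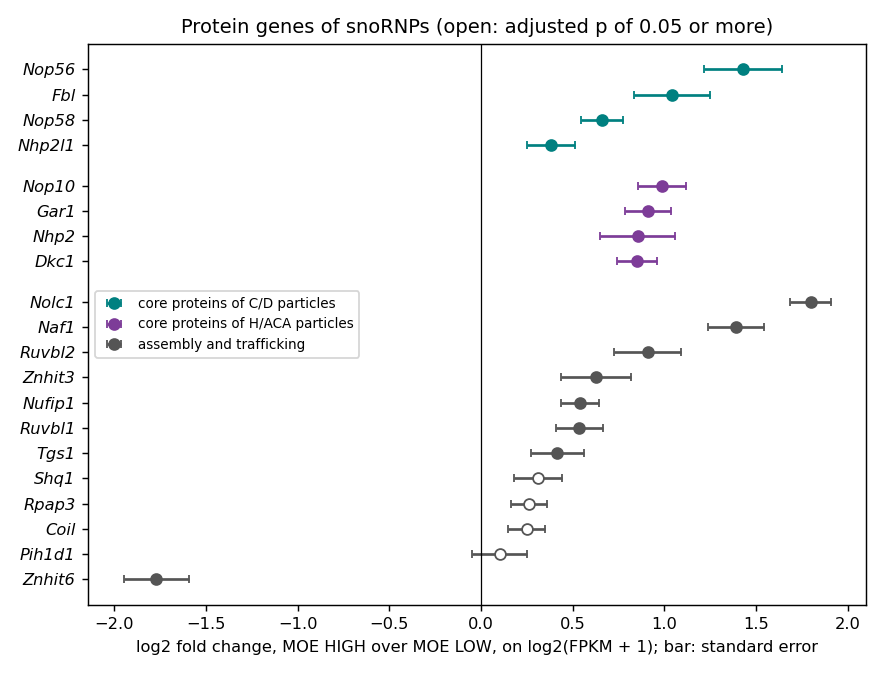
Log2 fold change of MOE HIGH over MOE LOW on log2(FPKM + 1) for 20 snoRNP genes, with bars of 1 standard error; filled points passed the test at an adjusted p of 0.05 in limma and open points did not. The 8 core genes lie between 0.38 and 1.43, Nolc1 is highest at 1.80 and Znhit6 alone lies below 0 at -1.77; no sign turned under either scaling of the libraries.

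Host genes were higher more often than lower. Of 60 host genes tested, 24 were called higher, 3 lower and 33 neither, where 24.3% of all genes were higher and 32.1% lower. The groups did not overlap in 30 hosts, against 64.0% of all genes. Their median log2 fold change was 0.37. Leaving out passage 113 raised the number called higher to 41. Among 20 ribosomal protein hosts, taken as symbols with Rpl or Rps before a digit or p, 3 were higher, 0 lower and 17 not called. Among the 40 others 21 were higher, 3 lower and 16 not called, and these 16 include the ribosomal protein gene Rpsa. The difference between these 2 shares was not tested.

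The largest host rises were in nucleolar and noncoding genes, chosen here after their values were seen. Ncl, which encodes nucleolin and hosts Snord82, had 1264 ± 95.0 FPKM in MOE HIGH and 467 ± 13.0 FPKM in MOE LOW (SD, n = 3 each; log2 fold change 1.43). The noncoding gene 1110038B12Rik, host of Snord52, had a log2 fold change of 1.46, and the snoRNP gene Nop56 above hosts Snord57 and Snord110. Gas5, a noncoding gene named for its level in growth-arrested cells, hosts Snord47 and had a smaller rise of 0.57. All 5 of these snoRNAs were listed at 0 in all 6 libraries, so whether they followed their hosts could not be read. Of the hosts that were lower, 0610007N19Rik (now Snhg18, host of Snord123) had 0, 0 and 0.0285 FPKM in MOE HIGH, against 19.8, 15.9 and 13.8 FPKM in MOE LOW, and Chd8 and Rbmx had log2 fold changes of -0.84 and -0.89.

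For the snoRNAs described above, host and snoRNA were read side by side. Eef1b2, a translation elongation factor and host of Snora41, was called higher (0.43), though not in 3 of 15 alternatives, while Snora41 was at 0 in MOE HIGH. Rps2, host of Snora64, had a log2 fold change of 0.55 and was called (adjusted p = 0.031 from limma), though not in 7 of 15 alternatives. Rps3, host of both U15-type snoRNAs, had 0.19 and was not called. Snhg12 was higher by 0.83 with 4 members, 2 of them at 0. Snx5, host of Snord17, was higher by 0.80, and Eif4a2, host of Snora81, had -0.06 (adjusted p = 0.72 from limma). For Rpl12 (0.69), Rps12 (0.48) and Rpl10 (0.06), hosts of Snora65, Snora33 and Snora70, the test was not passed. 2310037I24Rik (now Kansl2), which holds Snora34 and Snora2b, was higher by 0.59.

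The labelled cell type was checked on marker genes. The epithelial genes Epcam and Cdh1 were at 0 to 0.0821 FPKM in all 6 libraries. Of the 4 other epithelial genes, Krt18 (log2 fold change 1.31) and Krt7 (0.97) were called higher, and Krt8 (-0.29) and Krt19 (-0.36) were not called. The oviductal genes Pax8 and Ovgp1 were not called, and of the ciliated cell genes Foxj1 was called higher (1.39) and Tppp3 was not called. Of 5 fibroblast and smooth muscle markers, 3 were lower in MOE HIGH (Acta2, Col1a1 and Col1a2), 1 was not called (Dcn) and 1 was too low to test (Myh11). Acta2, smooth muscle actin, was at 5.74 ± 1.53 FPKM in MOE HIGH and 4395 ± 650.1 FPKM in MOE LOW (SD, n = 3 each), and so parted the libraries by their labels. Of the endothelial genes, Pecam1 and Cdh5 were at 0 to 0.0158 FPKM, and Kdr was at 0, 0.00998 and 0 FPKM in MOE HIGH and 3.64, 2.63 and 1.87 FPKM in MOE LOW and was called lower. Of the leukocyte genes, Ptprc was at 0 to 0.133 FPKM in all 6 libraries, and Cd68 was at 1.34 to 1.72 FPKM in MOE HIGH and 1.36 to 2.14 FPKM in MOE LOW and was not called. The part of such a difference in cell makeup in the snoRNA values was not tested.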

How the data were processed

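RNA depleted of ribosomal RNA was sequenced from strand-specific libraries of 3 passages of MOE HIGH and 3 of MOE LOW. Per the processing notes and methods, the authors used TopHat2 2.0.8b for alignment (mm10), and the values they deposited for each library are FPKM, made over UCSC genes with Cufflinks and Cuffdiff 2.1.1 after merging assembled transcripts, so an entry may span more than the annotated snoRNA. Reads of unspliced host introns and of snoRNAs cannot be told apart in such values, and the handling of multiply aligned reads and of strand in counting is not given in the sources used here. The heading of the value column named another passage or "Locus" in all 6 tables, and libraries were therefore identified by their sample labels, which leaves the passages within a group unverified. Each table held 23141 entries, 104 of them with a member symbol. For 7 repeated symbols the highest-mean entry was used, and the 12 entries left out were all at 0. No counts were used, and absolute depth is unknown.

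MOE HIGH was compared with MOE LOW by limma 3.58.1 in R 4.3.3 with a variance trend, on log2(FPKM + 1), for symbols with a mean of at least 0.5 FPKM, adjusted by Benjamini and Hochberg at 0.05. Fold changes on this scale understate changes of low genes. The test of the study needs reads. Only the limma fit was tested on simulated data, with normal noise on the log2 scale and changes placed in genes above a minimum level. That simulation was not built on the listed zeros of the members, so it does not vouch for their calls. Relative depth was the mode of log2 ratios among genes below 0.05 FPKM. Sequences and hosts came from GENCODE vM21 (GRCm38), lengths and names from RefSeq, and figures from Python 3.11.15, pandas 2.3.3, scipy 1.17.1 and matplotlib 3.10.9. Wrap53, and hosts of Snora21, Snora30, Snord89 and Snora74a, were not used here.

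The members and lists were chosen with earlier results of these data known. Named were, per class, the 5 highest means and up to 6 called members per direction, members at 0 in 1 whole group only, up to 5 with partial zeros at 5 FPKM or more, members sharing a host of at least 3, their hosts, and all snoRNP genes; other genes were named after their values were seen. Alternatives were equal summed FPKM, equal medians, pseudocounts (0.1 or 0.01), omission of the filter, a minimum mean of 5, an adjusted p of 0.01, no variance trend, a replicate block, summed repeated symbols, and leaving out each library.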

Additional observations from a re-analysis of the deposited data

How the results depend on the processing

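Snora78, Snord89 and Znhit6, and all core snoRNP genes except Nhp2l1, kept their direction and call in every alternative in which they were tested. H/ACA snoRNAs called lower (1, Snora41) fell to 0 with equal summed FPKM, a pseudocount of 0.01, no filter or an adjusted p of 0.01, and were 0 to 1 without 1 library. C/D snoRNAs called higher (1, Snord15a) were 0 in those 4 settings and with a mean of at least 5, and 0 to 1 without 1 library, and C/D snoRNAs called lower (1, Snord89) were 0 with a mean of at least 5, which leaves Snord89 out. Same-numbered libraries did not deviate together (correlations of deviations -0.02, -0.15 and 0.12 for numbers 1 to 3, and 2 of 6 libraries closest to their own number). The replicate block gave 5 H/ACA and 2 C/D snoRNAs called higher, adding Snora64, Snora81 and Snord15b. Host genes called higher were 18 to 41 without 1 library, 41 without passage 113. Signs of uncalled values turned with equal summed FPKM for Snora33 (0.0032), Snora34 (-0.014) and Rpl10 (-0.0043). Without 1 library they ranged from -3.03 to 2.97 for Snora33, -2.13 to 2.31 for Snora34, -1.92 to 2.83 for Snora65, -0.31 to 0.30 for Snora70, -0.96 to 0.17 for Snord17, -0.036 to 0.26 for Pih1d1 and -0.039 to 0.21 for Rpl10. The cause was not tested in any of these. Equal medians moved the median log2 fold change of all genes from -0.05 to 0.05. Precision is limited by 3 passages of 1 line per group, the unknown depth and values close to the lowest listed for a member, where a listed 0 and a low level cannot be told apart.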
